A study of Rattus norvegicus with 8 samples.

Results

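The genes described here are those of the transforming growth factor beta (TGF-beta) and bone morphogenetic protein (BMP) families, their receptors, their Smad proteins and their extracellular regulators, as measured in rat spinal motoneurons. Members were taken by symbol: every probe set annotated with a single symbol that starts with Tgfb, Bmp, Acvr, Smad, Gdf, Inhb or Ltbp followed by a number or letter, plus Nog, Chrd, Fst and Grem1, without Tgfbi and without Eng. The rule found 78 probe sets of 50 genes among 31042 probe sets, and it used no measured value. A further 2 probe sets carry the symbols of both Gdf1 and Cers1 and were left out. Of the members, 3 genes share the start of the name but are not ligands, receptors, Smads or extracellular regulators. These are Tgfb1i1, a LIM-domain protein of focal adhesions, Tgfbrap1, a receptor-associated protein, and Bmp2k, a kinase. They are described apart.

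The samples were motoneurons, the cholinergic cells that drive muscle, laser-captured from lumbar cord sections of Wistar albino rats. The labels place postnatal day 1 (P1) during myelination and postnatal day 21 (P21) after it, and no animal received a treatment that the labels name. Each age had 4 biological replicates, each a pool of 4 rats from which 1500 to 2000 motoneurons, recognised by cresyl violet in sections of 12 µm, were collected for 1 Affymetrix RAE230 2.0 array. About 50 ng of RNA went through 2 rounds of amplification primed at the poly(A) tail, which favours sequence close to a transcript's 3′ end. A capture of cells from sections also takes in whatever lies against them, and in such pools fewer cells of a type and less RNA per cell cannot be told apart.

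TGF-beta family ligands are secreted dimers that bring together a type II and a type I receptor kinase. TGF-betas and activins act through Smad2 and Smad3, BMPs through Smad1, Smad5 and Smad9, and both branches use Smad4, while Smad6 and Smad7 inhibit. Latent TGF-beta binding proteins hold TGF-beta in the matrix, and noggin, gremlin, chordin and follistatin bind ligands and keep them from their receptors. BMPs pattern the dorsal neural tube, and TGF-beta2 is known as a survival factor for embryonic motoneurons.

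Values are the authors' linear intensities, written by replicate 1 to 4 or as mean ± SD with n = 4 arrays per age. Each change is P21 minus P1 on the log2 scale, taken from log2(intensity + 16) and written ± its standard error, and adjusted p-values come from limma with Benjamini-Hochberg adjustment over all 10961 genes tested, with a call at 0.05. A gene is its brightest tested probe set. A probe set was tested if it exceeded the 40th percentile of its array, an intensity of 221 to 287 called the filter level below, on at least 4 of the 8 arrays. Levels of different probe sets are not comparable, so only changes are set side by side between genes. The summed marker intensities below add such levels, so the brightest probe sets weigh most, and they compare arrays only.

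Other facts of the arrays bear on every result. Median intensities lay between 323 and 416, and pairs of arrays had correlations of 0.958 to 0.986 if of the same age and 0.821 to 0.868 otherwise. Of 5 motoneuron markers, 1 was higher at P21, 1 lower and 3 did not pass, and their summed intensity went from 17643–20383 to 18996–23899. Chat, which makes acetylcholine, went from 1377 ± 244 to 3451 ± 450.0, and Slc18a3, the vesicular transporter, read 4103 ± 644 and 3769 ± 1033. The marker that fell was Isl1, a transcription factor of motoneuron development (789.8 ± 209 to 239.8 ± 84.4, change -1.67 ± 0.24, adjusted p = 4.62e-04), with 3 of 4 P21 values under the filter level. Markers of other cells were present too. Of 9 oligodendrocyte markers tested 7 were higher at P21, and their summed intensity went from 6789–8667 to 32931–35481. Of 8 astrocyte markers 6 were higher and 1 lower (13910–15405 to 21391–24971), of 6 microglial markers 4 were higher (1990–2921 to 4612–7730), and of 7 fibroblast and pericyte markers 5 were higher (7449–10416 to 12947–27777). Of 5 endothelial markers 3 were higher (2957–4569 to 3483–6453), of 3 erythrocyte markers 2 were higher (2535–8241 to 8699–12425), and of 6 markers of dividing cells 3 were lower (5946–6322 to 3942–5722). No marker that was tested read 0 throughout an age, although Mobp of oligodendrocytes averaged 9.05 at P1. The part of these cells in the changes below was not tested.

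Members went both ways between the ages. Within several pairs of genes of like role, 1 partner fell and the other rose: Tgfb2 and Tgfb3, Bmp2 and Bmp4, the activin subunits Inhba and Inhbb, the antagonists Grem1 and Nog, and the BMP-branch Smads Smad1 and Smad9. These pairs were put together after their values were seen. Of the 50 genes 38 were tested, and 11 were higher at P21, 9 were lower and 18 did not pass. Across all genes 40.9% passed (22.8% higher, 18.1% lower), against 52.6% of the tested members. The median change of the tested members was -0.03 and that of all genes 0.05. A fitted change of at least 2-fold among called genes was found in 10 members (7 higher, 3 lower), or 26.3% of those tested, against 10.3% of all genes. These are fitted values. The falls include Grem1, whose bound, given below, is under 2-fold, and Tgfb1i1, one of the 3 genes described apart. The rises include Bmp4 and Acvrl1, each with 3 of 4 P1 values under the filter level.

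The balance between rises and falls depended on scaling. When arrays were centred on their medians, which moved the median change of all probe sets from 0.07 to -0.07, 9 member genes were higher and 12 lower, and the split of all genes went from 2497 higher and 1989 lower to 1608 and 2421. Quantile normalization gave 9 and 12 member genes, against 2439 and 2383 of all genes. Among member probe sets, 49 of 78 were tested, of which 14 were higher and 12 lower, against 38.3% of all probe sets called (20.8% higher, 17.4% lower). Centred arrays gave 10 and 14, against 2631 and 4184 of all probe sets, and quantile normalization 10 and 16, against 3740 and 4055. The ages did not overlap in 23 of these 49, which held for 38.0% of all tested probe sets. Of the 49, 3 lay under the filter level on all 4 arrays of 1 age, so that they were tested only because of the other age: Grem1 and a second probe set of Tgfb2 at P21, and a second probe set of Smad7 at P1.

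**Figure D1:**
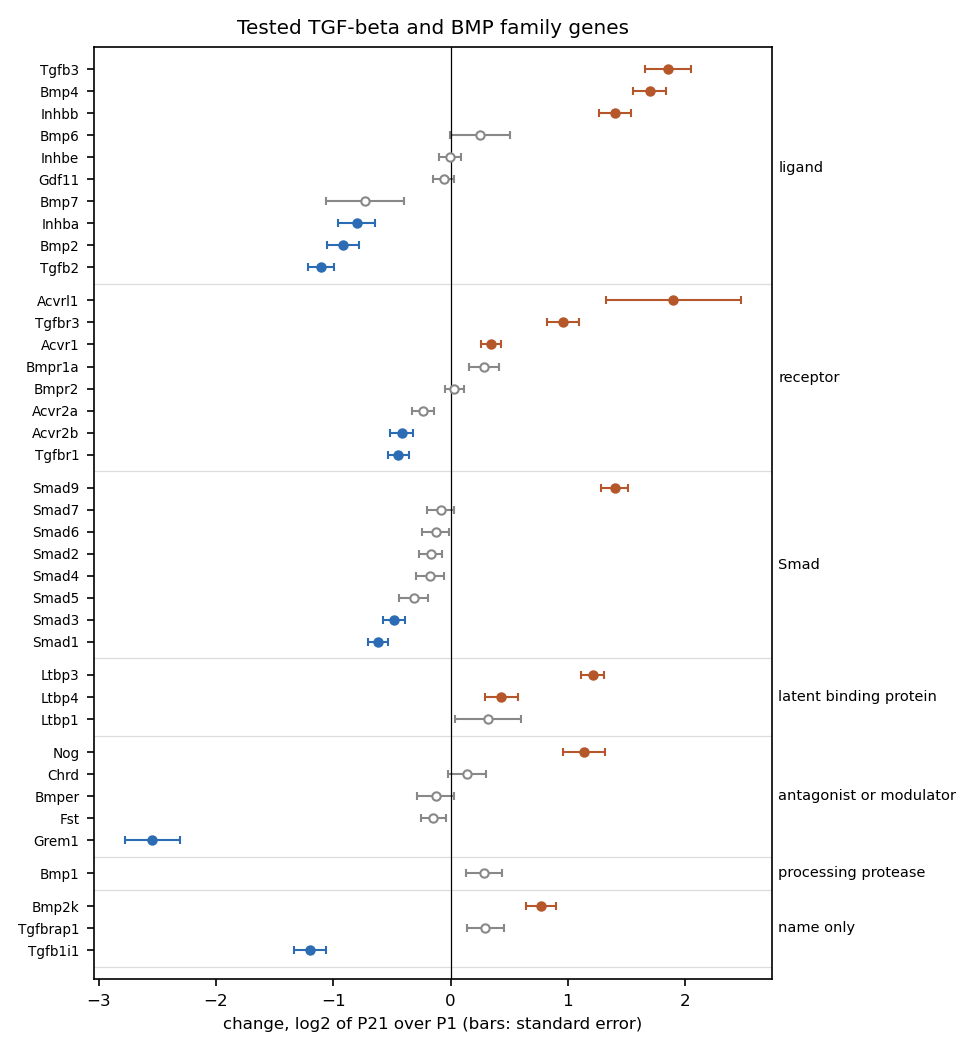
Change (log2 of P21 over P1, horizontal axis) of the 38 tested member genes, grouped by role, with standard errors from limma and n = 4 arrays per age. Filled points passed the test (orange higher, blue lower at P21) and open grey points did not; rises and falls stand side by side among ligands, receptors, Smads and antagonists.

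Among the TGF-beta ligands, Tgfb2 fell and Tgfb3 rose. Tgfb2 read 2587, 2650.0, 2665 and 2589 on the P1 arrays and 1186, 988, 1279 and 1432 on the P21 arrays. The P1 values were nearly equal and every P21 value was lower than all of them. The change was -1.11 ± 0.11, a 2.15-fold fall (adjusted p = 6.01e-05). A second probe set of Tgfb2 agreed in direction, from 763 ± 33.4 to 231 ± 16.2, all 4 P21 values being under the filter level, so that its fall was at least 2.68-fold. In all such bounds the dimmer age is taken at the filter level of its arrays, on the log2 scale.

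Tgfb3, whose protein shares its receptors with TGF-beta2, read 332, 223, 304 and 452 at P1 and 1008, 1170.2, 1462 and 1163 at P21. The ages did not overlap, and the change was 1.85 ± 0.19, or 3.61-fold (adjusted p = 7.08e-05). The only Tgfb1 probe set was under the filter level on every array, reading 68.4 to 187.9 over both ages, and was not tested.

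To show the start regions of these oppositely moving ligand genes, the promoters of Tgfb2 and Tgfb3 are given from RefSeq on build GRCr8, 250 bases before to 50 after the start, both on the minus strand, at chr13:100792636-100792935 and chr6:111456897-111457196. Capitals mark CACGTG, the only 1 of 3 searched motifs found in either; the others were CAGAC, the core letters of the Smad box, and GGCGCC, a GC-rich sequence that Smads can bind, each searched on both strands with overlapping hits counted.
Tgfb2: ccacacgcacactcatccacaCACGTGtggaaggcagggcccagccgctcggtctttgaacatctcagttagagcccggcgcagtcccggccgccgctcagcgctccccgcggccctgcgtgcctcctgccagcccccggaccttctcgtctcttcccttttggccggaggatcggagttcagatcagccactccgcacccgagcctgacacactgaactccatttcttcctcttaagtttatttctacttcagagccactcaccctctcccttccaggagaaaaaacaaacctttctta
Tgfb3: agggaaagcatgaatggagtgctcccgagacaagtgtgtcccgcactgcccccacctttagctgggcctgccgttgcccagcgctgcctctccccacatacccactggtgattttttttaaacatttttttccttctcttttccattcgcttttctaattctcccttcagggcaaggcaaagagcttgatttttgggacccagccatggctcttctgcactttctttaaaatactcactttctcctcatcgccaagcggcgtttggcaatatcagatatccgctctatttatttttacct

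Of all 33469 promoters of this length, 6.42% held CACGTG, 50.1% held CAGAC and 11.02% held GGCGCC. Promoters were found for 42 of the 50 member genes, with a single promoter taken per gene, of which 2, 15 and 15 held these motifs. The percentages count every promoter entry, where a gene may stand more than once. Base content was not matched, so the member counts are not a measure of enrichment. CAGAC was in 3 of 9 promoters of genes that rose and 2 of 8 of genes that fell, and GGCGCC in 5 of 9 and 3 of 8. These are matches of letters in a short window and say nothing of binding.

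Among the BMP ligands, Bmp2 fell and Bmp4 rose, although the proteins are close relatives that share receptors. Bmp2 read 773, 979, 955 and 876 at P1 and 411, 459, 415 and 595 at P21, with no overlap (change -0.92 ± 0.13, 1.89-fold lower, adjusted p = 4.94e-04). Bmp4 read 209, 209, 177 and 296 at P1, where 3 of the 4 values were under the filter level, and 714, 684, 839.9 and 752 at P21. The P21 arrays were all above the P1 arrays (fitted change 1.70 ± 0.14, 3.24-fold from 1 P1 value above the filter level and 3 under it, adjusted p = 1.92e-05).

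Bmp6 and Bmp7, of the group that signals mainly through Acvr1, did not pass. Bmp6 read 634 ± 171 and 771 ± 252 (change 0.25 ± 0.26, adjusted p = 0.469), and its 3 tested probe sets had changes from 0.16 to 0.27, none of them called. Bmp7 went from 364 ± 26.5 to 238 ± 122 (change -0.73 ± 0.33, adjusted p = 0.108). Its P21 arrays read 239, 390.0, 233 and 90.6, so the widest spread lay at P21, and it passed without P21 replicate 2 (adjusted p = 0.0258) and with centred arrays (-0.87, adjusted p = 0.0415). Gdf11, a relative of myostatin that acts in axial patterning, read 1725 ± 166 and 1653 ± 63.6 (change -0.06 ± 0.09, adjusted p = 0.641).

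The activin and inhibin subunits changed in both directions. Inhba, the subunit of activin A, read 639, 919.8, 585 and 623 at P1 and 478, 356, 375 and 341 at P21. Every P21 value was lower (change -0.80 ± 0.16, adjusted p = 0.00309), and a second probe set fell by 0.44, with overlapping ages. Inhbb, the subunit of activin B, rose from 478, 644, 497 and 463 to 1286, 1186, 1622 and 1509 (change 1.40 ± 0.14, 2.64-fold, adjusted p = 4.51e-05). The ages were separated by a wide gap. Inhbe, a subunit known mainly from liver, read 1731 ± 163 and 1717 ± 99.4 and did not pass (change -0.01 ± 0.09). Inha, the alpha subunit that turns activin into inhibin and is not a member by the rule, fell from 693 ± 97.1 to 359.7 ± 10.4 (change -0.91 ± 0.11, adjusted p = 1.66e-04).

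**Figure D2:**
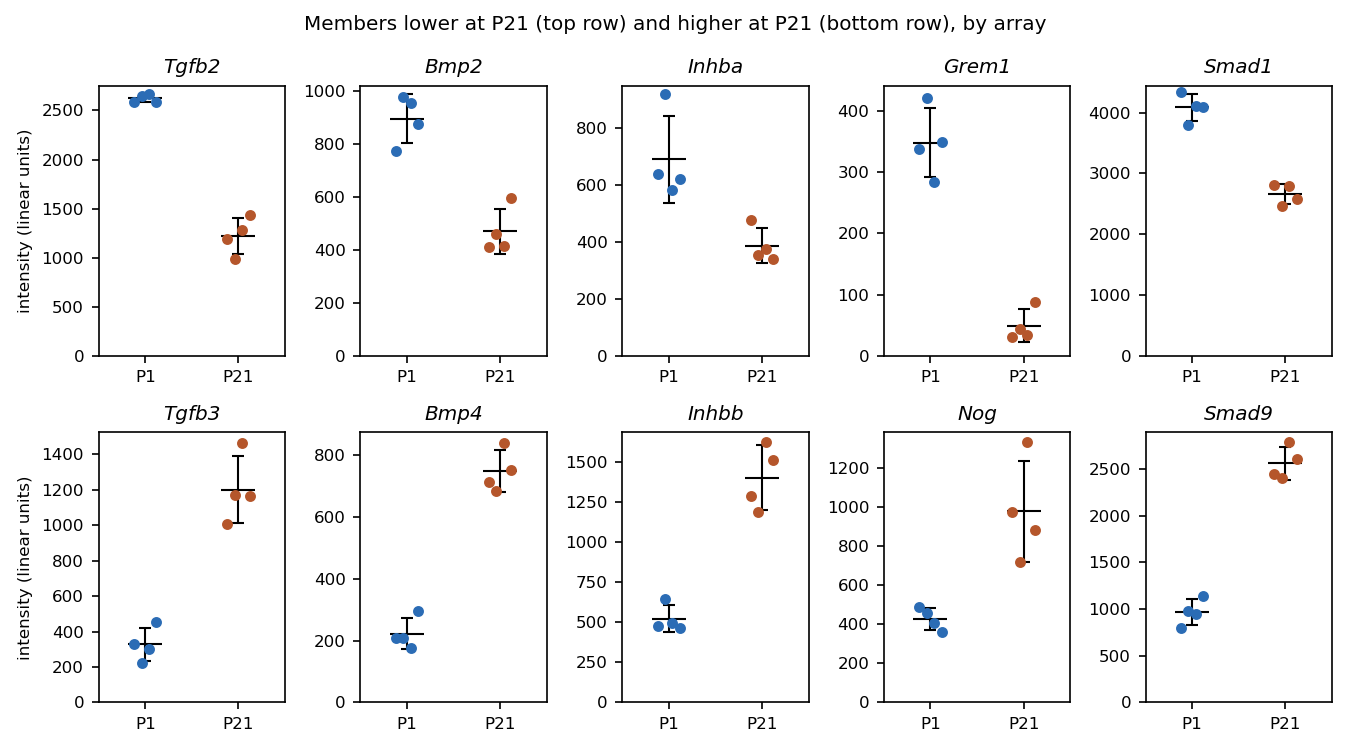
Linear intensity of the brightest tested probe set of 10 genes on the 4 P1 arrays (blue) and the 4 P21 arrays (orange), with each gene's own axis from 0, the mean as a long horizontal bar and the SD as error bars. In the top row every P21 point lies under every P1 point, in the bottom row above; Grem1 at P21 lies between 30.6 and 88.1, under the filter level.

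Of the 5 antagonists and modulators tested, Grem1 fell, Nog rose and 3 did not pass. Grem1, gremlin, which binds BMP2 and BMP4, read 337, 421, 285 and 349 at P1 and 30.6, 43.8, 34.7 and 88.1 at P21. All 4 P21 values were under the filter level, so the fall is given as at least 1.24-fold (fitted change -2.54 ± 0.24, adjusted p = 3.42e-05). Nog, noggin, read 487, 457, 407 and 359.7 at P1 and 977, 719, 1335 and 886 at P21. The ages did not overlap, and P21 replicate 3 was the brightest (change 1.14 ± 0.18, 2.20-fold, adjusted p = 7.77e-04).

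Chrd, chordin, read 855 ± 210.4 and 924 ± 78.3 (change 0.14 ± 0.16), and Bmper, a secreted regulator of BMPs, read 837 ± 91.3 and 777 ± 188 (change -0.13 ± 0.16). Neither passed. Fst, follistatin, which neutralises activins, read 467 ± 53.6 and 419.8 ± 33.9 (change -0.15 ± 0.10, adjusted p = 0.290), but passed with quantile normalization (-0.28, adjusted p = 0.0127). A second Fst probe set lay under the filter level on all 8 arrays, at 147 to 216 at P1 and 17.9 to 81.0 at P21, and was not tested. Without the filter its change of -1.82 ± 0.30 passed in limma (adjusted p = 0.00244 over all probe sets).

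The promoters of Grem1 and Nog, on the same build and window, lie at chr3:120978270-120978569 and chr10:74627452-74627751, both on the minus strand. Capitals mark the hits, 1 of CAGAC and 1 of GGCGCC in each.
Grem1: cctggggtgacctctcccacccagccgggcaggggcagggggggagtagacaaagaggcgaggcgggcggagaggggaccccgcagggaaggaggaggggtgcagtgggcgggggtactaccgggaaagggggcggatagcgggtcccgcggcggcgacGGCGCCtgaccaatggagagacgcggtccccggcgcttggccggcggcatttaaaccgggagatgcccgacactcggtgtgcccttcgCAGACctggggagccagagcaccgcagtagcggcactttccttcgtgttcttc
Nog: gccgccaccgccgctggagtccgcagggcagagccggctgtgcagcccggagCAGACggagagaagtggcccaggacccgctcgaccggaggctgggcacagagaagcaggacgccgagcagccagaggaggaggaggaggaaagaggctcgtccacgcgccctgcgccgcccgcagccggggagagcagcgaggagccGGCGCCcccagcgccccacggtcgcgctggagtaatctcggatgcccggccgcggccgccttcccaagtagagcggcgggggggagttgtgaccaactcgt

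Among the proteins that store latent TGF-beta, Ltbp3 rose from 1022, 813, 824 and 871 to 1957, 2086, 1984 and 2213 (change 1.21 ± 0.10, 2.32-fold, adjusted p = 1.27e-05). Both ages were tight and far apart. Ltbp4 read 504, 496, 479 and 671 at P1 and 641, 886, 753 and 645 at P21. P1 replicate 4 reached into the P21 range, and the rise of 0.43 ± 0.14 passed narrowly (adjusted p = 0.0344). That call was lost with the replicate number as a block (adjusted p = 0.0552), with centred arrays (0.168), with quantile normalization (0.112), without the filter (0.0506) and on leaving out P21 replicate 2 or 3, or any of P1 replicates 1 to 3 (0.0733 to 0.0917).

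Ltbp1 did not pass (310 ± 42.6 and 424 ± 229, change 0.32 ± 0.28), and its P21 spread came from replicate 2, which read 759.7 against 275 to 384 on the other P21 arrays. Ltbp2 was under the filter level on all P1 arrays and 1 P21 array and was not tested. Bmp1, which is not a ligand but a metalloprotease that cleaves procollagen and chordin, read 296 ± 30.5 and 370.2 ± 90.3 (change 0.29 ± 0.16, adjusted p = 0.171). It was highest on P21 replicate 4, at 497, the array on which the collagen gene Col1a1 was also highest, at 8626 against 2336 to 4154 on the other P21 arrays. Its other probe set read 491 there, against 138 to 194 on the other P21 arrays, and was not tested. The other fibroblast and pericyte markers did not all behave so. Among the P21 arrays, Col1a2 and Lum were also highest on replicate 4, but Dcn, Pdgfrb and Rgs5 were highest on replicate 2. Col3a1 had its lowest P21 value, 3098, on replicate 4. Whether collagen-producing cells on that array had a part in Bmp1 was not tested.

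Of the 8 receptor genes tested, 3 rose, 2 fell and 3 did not pass. Tgfbr1, the type I receptor of TGF-beta, fell from 1780.2, 1601, 1452 and 1712 to 1285, 1149, 1128 and 1218 (change -0.45 ± 0.09, adjusted p = 0.00392). Tgfbr3, betaglycan, the co-receptor that TGF-beta2 in particular needs for binding, rose from 650.4, 846, 553 and 601 to 1219, 1327, 1166 and 1452 (change 0.96 ± 0.14, 1.94-fold, adjusted p = 4.37e-04). In both genes the ages were separate. The type II activin receptor gene Acvr2b fell from 676 ± 51.8 to 503 ± 52.5 (change -0.42 ± 0.10, adjusted p = 0.00846).

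Its relative Acvr2a, at -0.24 ± 0.10, did not pass (adjusted p = 0.0765), but did with the replicate block (adjusted p = 0.0370), with centred arrays (-0.37, adjusted p = 0.0265) and with quantile normalization (-0.33, adjusted p = 0.0118). Acvr1, a type I receptor of BMPs, read 2245 ± 82.7 and 2853 ± 222, and all P21 values were above all P1 values. Its rise of 0.34 ± 0.09 passed (adjusted p = 0.0106), and so did a second probe set at 0.29, but the call was lost with centred arrays (0.20, adjusted p = 0.232). Bmpr1a, another type I BMP receptor, had a change of 0.29 ± 0.13 (adjusted p = 0.102), which passed with the replicate block (adjusted p = 0.0337) and without P1 replicate 2 (0.37, adjusted p = 0.0419). For Bmpr2, the type II BMP receptor, the change was 0.03 ± 0.08 (2139 ± 77.9 and 2190.3 ± 159.5), while its dimmer probe set passed at 0.42 ± 0.14 (adjusted p = 0.0457 over all probe sets).

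Acvrl1, the type I receptor known from endothelial cells, was the receptor whose call was lost most often. It read 37.6, 29.1, 182 and 249.6 at P1, where 3 values were under the filter level, and 326, 712, 306 and 292 at P21. The ages did not overlap, yet both were spread widely (change 1.90 ± 0.57, adjusted p = 0.0253). Significance was lost on leaving out P1 replicate 1 (adjusted p = 0.0664), P1 replicate 2 (0.0572) or P21 replicate 2 (0.0729) and with quantile normalization (0.0523). P21 replicate 2, the brightest array for Acvrl1 and Ltbp1, also had the highest summed intensity of the 5 endothelial markers, 6453 against 3483 to 5597 on the other P21 arrays. Cldn5, Pecam1, Flt1 and Tek were each highest there among the P21 arrays, but Kdr was not (1051, against 1298 on P21 replicate 1). Of the fibroblast and pericyte markers, Col3a1, Dcn, Pdgfrb and Rgs5 were also highest there, but Col1a1, Col1a2 and Lum were not. The part of any of these cells in Acvrl1 and Ltbp1 was not tested. Acvr1c was under the filter level on every array.

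Of the Smads, 8 genes were tested, 1 rose, 2 fell and 5 did not pass. Smad1 of the BMP branch fell from 4342, 3801, 4108 and 4085 to 2803, 2461, 2794 and 2581 (change -0.62 ± 0.08, 1.53-fold lower, adjusted p = 3.45e-04). A second probe set fell by 0.80 ± 0.13, from 1011 ± 169 to 572 ± 64.5. Smad9, a rarer BMP-branch Smad, rose from 798, 978, 950.1 and 1139 to 2440.1, 2403, 2790.0 and 2602 (change 1.40 ± 0.11, 2.64-fold, adjusted p = 1.50e-05). The ages were apart for both genes, in opposite directions.

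Smad5, the remaining BMP-branch Smad, read 1272 ± 177 and 1015 ± 104 (change -0.32 ± 0.12) and did not pass (adjusted p = 0.0635). It passed with the replicate block (adjusted p = 0.0313), with centred arrays (0.0470), with quantile normalization (0.0274), with the mean of its 3 tested probe sets (0.0437) and without P1 replicate 2 (0.0238), each time as a fall. Smad3 of the TGF-beta branch fell from 675, 762, 837 and 724 to 501, 504, 532 and 589 (change -0.48 ± 0.10, adjusted p = 0.00311), with no overlap. Its partner Smad2 (-0.17 ± 0.10) and the shared Smad4 (-0.18 ± 0.12) did not pass.

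The inhibitory Smads gave no call on their brightest probe sets. Smad6 had a change of -0.13 ± 0.11, and Smad7 read 1200.3 ± 163 and 1128 ± 125 (change -0.09 ± 0.12, adjusted p = 0.591). A dimmer probe set of Smad7 rose, from 204 ± 36.3 to 324 ± 24.9 (change 0.64 ± 0.13, at least 1.27-fold, adjusted p = 0.00347 over all probe sets). The mean of both did not pass (0.27, adjusted p = 0.0665), so the probe sets of Smad7 did not give a single answer.

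**Figure D3:**
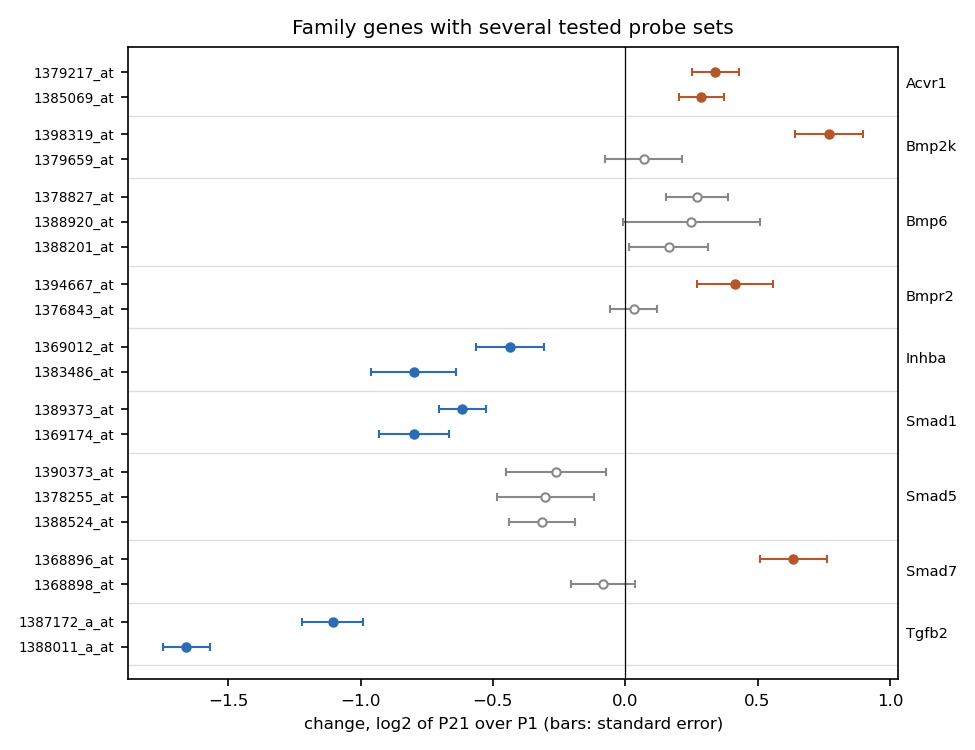
Change (log2 of P21 over P1, horizontal axis) with standard error for each tested probe set of the 9 member genes that had several, gene names at the right, n = 4 arrays per age. Filled points passed the test over all probe sets; in 6 genes all probe sets had the same call, in Bmp2k, Bmpr2 and Smad7 1 was called and the other not, and in none were calls opposed.

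The 3 genes that match the rule by name but have none of these family roles were also measured. Tgfb1i1, also known as Hic-5, fell from 2208, 1669, 2378 and 2184 to 772, 952, 1047 and 853 (change -1.20 ± 0.14, 2.30-fold lower, adjusted p = 1.08e-04). Bmp2k rose on its brighter probe set (766 ± 125 to 1311 ± 128, change 0.77 ± 0.13, adjusted p = 9.77e-04), and the other, at 0.07, did not pass. Tgfbrap1 read 347 ± 44.4 and 434 ± 96.4 (change 0.29 ± 0.16, adjusted p = 0.168), and passed without P21 replicate 2 (0.42, adjusted p = 0.0425). Without these 3 names the families held 10 rises and 8 falls.

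For 12 of the 50 genes no probe set was tested: Acvr1c, Bmp15, Bmp3, Bmp5, Bmp8a, Gdf10, Gdf15, Gdf6, Gdf9, Inhbc, Ltbp2 and Tgfb1, whose intensities lay between -7.10 and 343. In 3 of their 13 probe sets the ages did not overlap, which held for 38.0% of all tested probe sets. The share among all untested probe sets was not counted. Gdf10, a BMP relative known from cerebellum and bone, read 198, 302, 239 and 227 at P1 and 37.8, 50.7, 41.5 and 40.3 at P21. Of the P1 values 2 were above the filter level and all P21 values were under it, so that no bound above 1-fold could be given, and without the filter its change of -2.13 ± 0.14 passed (adjusted p = 2.39e-05). Ltbp2 (192 ± 46.5 and 289 ± 23.5) and Bmp8a (105 ± 6.76 and 140.2 ± 9.61) were the other 2, both higher at P21. Both passed in limma without the filter (adjusted p = 0.0445 for Ltbp2 and 0.0247 for Bmp8a).

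The filter set the tested members apart by their level on at least 4 arrays, which 1 age alone could supply. Of the 78 probe sets, 38 were above the filter level on all 8 arrays and 23 on none. Just inside the threshold, 3 were above it on 4 arrays, and just outside it 2 were above it on 3 arrays.

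Beyond the families, a list of 64 further genes of the same pathways (co-receptors, antagonists, intracellular regulators, targets and matrix partners) was read in the same way. Of these, 54 were on the array and 42 were tested, and 13 were higher at P21, 9 lower and 20 did not pass, against 22.8% and 18.1% of all genes. Their median change was 0.01. With centred arrays 9 were higher and 10 lower, against 1608 and 2421 of all genes.

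Sost, sclerostin, an antagonist of Wnt and BMP signals known from bone, had the largest fitted rise of this list: 96.0, 113, 92.0 and 90.2 at P1, all under the filter level, and 947, 1277, 1331 and 537 at P21 (at least 3.67-fold, fitted change 3.11 ± 0.25, adjusted p = 1.42e-05). A second Sost probe set was under the filter level on all 8 arrays and was not tested, reading 107 ± 54.2 and 103 ± 56.3. Amhr2, the type II receptor of anti-Müllerian hormone, rose from 229, 229, 138 and 168 to 915, 1069, 1033 and 1674 (change 2.51 ± 0.21, at least 4.32-fold). Both genes were under the filter level on every P1 array and well above it on every P21 array. They were thus tested only because of their P21 values. Dcn, decorin, a matrix proteoglycan that binds TGF-beta, rose from 667 ± 166 to 2618 ± 394 (change 1.97 ± 0.19). It is also on the fibroblast and pericyte marker list, 5 of whose 7 genes rose.

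Crim1, a membrane protein that binds BMPs, fell from 3930.2, 2667, 3272 and 3275 to 577, 784, 831 and 499.8 (change -2.28 ± 0.18, 4.85-fold lower, adjusted p = 1.15e-05). Rgma, a BMP co-receptor and ligand of neogenin in axon guidance, fell from 3223, 2851, 2742 and 2832 to 841, 854, 1214 and 1026 (change -1.56 ± 0.13, adjusted p = 1.43e-05). The ages were far apart in both. Fstl4, a follistatin-like gene, fell at least 1.79-fold (514 ± 121 to 171 ± 35.3). All 4 of its P21 values were under the filter level, so that it was tested only because of P1.

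The Id genes are common targets of BMP Smads. Id1 read 503, 356, 583 and 921 at P1 and 418, 596, 407 and 874 at P21, and the ages overlapped throughout (change -0.03 ± 0.31, adjusted p = 0.948). Id4 fell (-0.46 ± 0.10, adjusted p = 0.00422), and its other 2 tested probe sets fell too, by 0.47 and 0.58.

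Id2 rose by 0.44 ± 0.15 with an adjusted p of 0.0403, and the call was often lost. The p was 0.0606 to 0.103 on leaving out P21 replicate 1, 3 or 4, or any of P1 replicates 1 to 3; it was 0.166 with centred arrays, 0.0583 when unfiltered and 0.0961 on averaging its probe sets. Skil, a Smad corepressor, rose (0.40 ± 0.09, adjusted p = 0.00601), a call lost with centred arrays (0.26, adjusted p = 0.124). The ubiquitin ligase genes Smurf1 (-0.38 ± 0.16, adjusted p = 0.0845) and Smurf2 (-0.14 ± 0.13) did not pass, although Smurf1 passed with the replicate block (adjusted p = 0.0149), with centred arrays (-0.52, adjusted p = 0.0372) and without P21 replicate 1 (-0.49, adjusted p = 0.0309). Eng, endoglin, an endothelial co-receptor, had a change of 0.13 ± 0.08 (adjusted p = 0.245).

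Bambi, a decoy receptor, and Id3 were not tested. Bambi read 196 to 247 on P21 replicates 1 to 3 and 647 on P21 replicate 4. That array had the highest Col1a1 but the lowest Col3a1 of the P21 arrays, and any link was not tested.

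**Figure D4:**
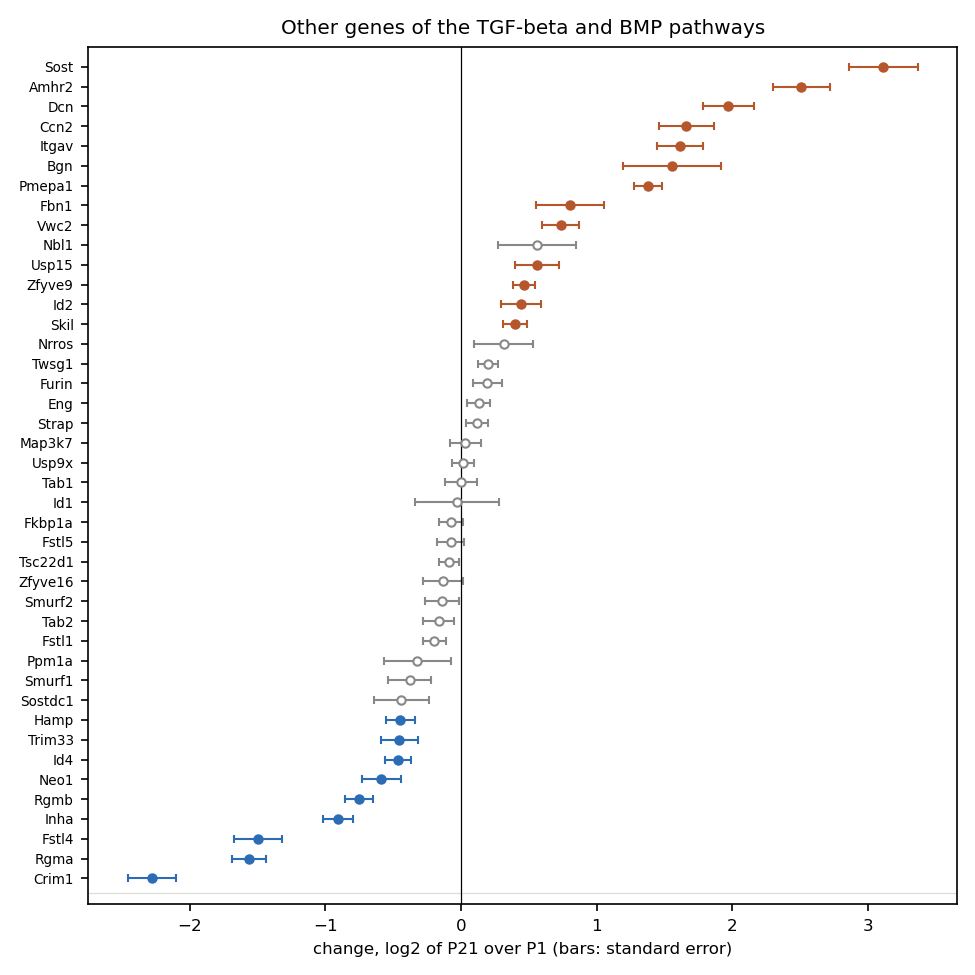
Change (log2 of P21 over P1, on the horizontal axis) with standard error of the 42 tested genes of the further pathway list, n = 4 arrays per age. Filled points passed the test (13 orange, higher; 9 blue, lower) and 20 open grey points did not; Sost and Amhr2 stand at the top and Crim1, Rgma and Fstl4 at the bottom.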

How the data were processed

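The table the authors deposited holds linear intensities of 31042 probe sets on 8 arrays, 4 per age. Array type and RNA handling are per the labels, and the summary, background and normalization methods are not given in the sources used here; some values lie below 0. Arrays have no read depth; precision is set by how many there are, and p-values measure only the spread between these pools.

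Names come from GEO's platform annotation (20826 with 1 symbol, 436 with several, 9780 with none); all 50 member gene IDs were in the current GRCr8 table and 0 symbols changed. After setting negative intensities to 0, log2(intensity + 16) was modelled with limma 3.58.1 in R 4.3.3 (lmFit, eBayes, no covariate) on 19155 tested probe sets and, separately, on 10961 genes; the code was tested on simulated data. Members and lists were chosen with earlier results of these data known. Every member could be named; of the other pathway genes, the 3 largest called rises and falls and a preset group of genes, not all of which are reported here. Col1a1, Cldn5, Chat and Slc18a3 were preset markers. Mobp, Isl1, Pecam1, Flt1, Tek, Kdr, Col1a2, Col3a1, Lum, Pdgfrb and Rgs5 were named after their values were seen.

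Deviations of same-numbered arrays from their age means correlated at 0.514, 0.321, 0.558 and 0.150 for replicates 1 to 4. Arrays of different numbers gave -0.458 to 0.366. Each P21 array correlated most with the P1 array of its own number, and P1 replicates 1 to 3 correlated most with theirs. P1 replicate 4 was the exception and correlated more with P21 replicate 3 (0.366) than with P21 replicate 4. The design text has litters shared between ages but does not say that a number is a litter. Pairing by number was thus not settled. The reported changes and calls come from the fit without it, and the replicate block is an alternative.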

Additional observations from a re-analysis of the deposited data

Results flagged for a closer look

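In each age group of 4 arrays of each tested member probe set, 98 groups in all, the highest or lowest array was compared with the other 3. Chance marks about 1 in 20 groups, and 7 were marked. P1 replicate 1 stood high in a second probe set of Smad1 (1262, others 895 to 948) and in Smad7 (1444, others 1100.4 to 1144). Without it the Smad7 change was 0.0054 in place of -0.09. P1 replicate 2 stood high in Inhba (919.8, others 585 to 639), P1 replicate 4 in Ltbp4 (671, others 479 to 504), and P21 replicate 1 in Smad6 (321, others 255 to 260.0). P21 replicate 2 stood high in Acvrl1 (712, others 292 to 326), and without it that rise no longer passed (adjusted p = 0.0729). P1 replicate 3 stood low in Acvr2a (683, others 793 to 814).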

How the results depend on the processing

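Alternatives were pseudocounts of 1 and 64, no filter, a filter at the 60th percentile, centred arrays, quantile normalization, the replicate block, eBayes with trend and robust, the mean of a gene's probe sets, and leaving out each array. Of the 20 member genes called, 17 kept their call and direction under each alternative that tested them, and Acvr1, Acvrl1 and Ltbp4 lost it under some. Of the 18 not called, 6 passed under at least 1. Leaving out an array gave 10 to 12 higher and 9 to 10 lower member genes, 12 to 15 higher and 11 to 13 lower member probe sets, and 11 to 13 higher and 8 to 10 lower other pathway genes. All genes then gave 2091 to 2568 higher and 1572 to 2074 lower, and all probe sets 3305 to 4248 and 2650 to 3409. The replicate block gave 11 higher and 11 lower member genes, against 2938 and 2327 of all genes. Of all probe sets it called 4862 higher and 3943 lower, where the main fit called 3990 and 3339. Among the named genes the block changed the calls of Ltbp4, Acvr2a, Bmpr1a, Smad5 and Smurf1. All probe sets called were 7329, and 5866 to 8805 under alternatives. No count of members or other pathway genes moved by over 1.5 times, but with centred arrays all genes called higher went from 2497 to 1608 and all probe sets called higher from 3990 to 2631. Changes near 0 turned sign, none of them called: Bmpr2 to -0.11 and Eng to -0.0061 with centred arrays, and Smad7 to 0.27 and Smurf2 to 0.046 with the mean of probe sets. Leaving out 1 array, changes spanned -0.010 to 0.072 for Bmpr2, -0.10 to 0.0028 for Gdf11, -0.071 to 0.034 for Inhbe, -0.16 to 0.0054 for Smad7 and -0.25 to 0.21 for Id1. The cause was not tested. Low signal limits what can be said of the 12 untested genes.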
